A study of Mus musculus with 7 samples.

Results

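The genes of calcineurin, of the NFAT transcription factors it activates and of its feedback regulators were examined in islets of 7-day-old mice. The 9 genes were taken by symbol: Nfatc1, Nfatc2, Nfatc3 and Nfatc4, the calcineurin subunit genes Ppp3ca, Ppp3cb and Ppp3r1, and the regulators Rcan1 and Rcan2. Each symbol matched 1 identifier among the 49315 genes in the files, and all 9 were among the 19893 genes that entered the test. The study compared 4 islet RNA pools from mice with a β-cell specific deletion of Nrf2 (βNrf2KO) with 3 pools from Nrf2lox/lox mice (control), to ask how Nrf2 acts on β-cell proliferation after birth. Each pool combined RNA of 5 animals, so p-values measure the spread between pools. The titles number the pools as single mice, and the promoter driving Cre is not given in the sources used here.

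Calcineurin is a phosphatase switched on by calcium and calmodulin. It consists of a catalytic A subunit (Ppp3ca, Ppp3cb or, mainly in testis, Ppp3cc) and a calcium-binding B subunit (Ppp3r1). It removes phosphates from cytoplasmic NFAT proteins, which then enter the nucleus, and kinases such as Gsk3b and Dyrk1a send them out again. Rcan proteins bind calcineurin and restrain it, and Rcan1 is itself an NFAT target, which makes it a common readout of the pathway. In mouse β-cells the pathway is known for driving growth in the weeks after birth and for keeping up genes of insulin granules and of β-cell transcription factors.

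Total counts were 18187382 to 20847474 in the βNrf2KO pools and 21603654 to 25373105 in the control pools. Cre, the recombinase that deletes loxP-flanked DNA, had 23 to 73 counts in the βNrf2KO pools and 0 in each control pool. Nfe2l2, the gene of Nrf2, overlapped between the groups (5.97 ± 0.12 in βNrf2KO, SD, n = 4, and 5.82 ± 0.53 in control pools, SD, n = 3, in log2 CPM, the log2 of counts scaled to library size with TMM factors), and counts over a whole gene in whole islets do not check a deletion in 1 cell type. Ins2 averaged 55492 TPM, length-scaled transcript levels, in βNrf2KO and 26566 TPM in control pools. Ins1 averaged 17489 TPM in βNrf2KO and 22068 TPM in control pools, so both insulin markers of islets were abundant. The mitochondrial genome took 27.7%, 22.4%, 20.6% and 10.02% of the counts in βNrf2KO pools 1, 2, 3 and 4, and 43.0%, 51.8% and 14.6% in control pools 1, 2 and 4. Control pools 1 and 2 therefore had the largest mitochondrial shares, and control pool 4 lay within the βNrf2KO range.

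Rcan1 has more than 1 start in RefSeq, and the internal one, ahead of exon 4, is the start known to answer to calcineurin through NFAT sites. The windows around both starts are shown because they differ in the NFAT core letters, and those of Nfatc4 and Ppp3r1 because these members had the largest lower and higher differences. Each window runs from 250 bases before to 50 bases after a start, 5′ to 3′ on the gene's strand, from the RefSeq table on GRCm38.p6. Capitals mark GGAAA, the NFAT core, or its reverse complement TTTCC.
Rcan1, distal start, chr16:92466120-92466419, minus strand: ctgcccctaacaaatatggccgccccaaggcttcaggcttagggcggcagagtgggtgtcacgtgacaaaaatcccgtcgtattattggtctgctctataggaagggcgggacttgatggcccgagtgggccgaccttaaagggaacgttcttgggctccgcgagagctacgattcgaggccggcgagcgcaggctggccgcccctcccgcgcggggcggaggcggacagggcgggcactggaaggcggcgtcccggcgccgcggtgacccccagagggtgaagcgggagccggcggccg
Rcan1, internal start, chr16:92400029-92400328, minus strand: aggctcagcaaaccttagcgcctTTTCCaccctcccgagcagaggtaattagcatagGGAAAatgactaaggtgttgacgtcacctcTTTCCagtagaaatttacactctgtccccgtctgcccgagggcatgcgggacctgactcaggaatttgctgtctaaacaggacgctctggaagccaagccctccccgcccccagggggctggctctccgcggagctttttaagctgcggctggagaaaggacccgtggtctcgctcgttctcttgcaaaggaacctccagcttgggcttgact
Nfatc4, chr14:55824545-55824844, plus strand: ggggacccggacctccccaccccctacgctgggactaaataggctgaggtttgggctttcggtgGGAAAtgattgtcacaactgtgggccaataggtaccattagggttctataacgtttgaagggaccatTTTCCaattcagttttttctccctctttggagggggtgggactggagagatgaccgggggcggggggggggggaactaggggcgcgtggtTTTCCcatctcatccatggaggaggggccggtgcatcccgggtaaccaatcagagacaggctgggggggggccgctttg
Ppp3r1, chr11:17159048-17159347, plus strand: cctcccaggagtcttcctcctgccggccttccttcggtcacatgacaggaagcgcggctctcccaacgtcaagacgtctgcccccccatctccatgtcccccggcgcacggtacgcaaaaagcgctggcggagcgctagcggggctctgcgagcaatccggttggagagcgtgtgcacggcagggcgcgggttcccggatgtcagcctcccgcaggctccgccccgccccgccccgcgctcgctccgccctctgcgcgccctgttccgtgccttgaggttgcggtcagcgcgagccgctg
The internal Rcan1 window held 3 copies of the core and the distal window 0. The Nfatc4 window held 3 and the Ppp3r1 window 0. Among windows not printed, that of Ppp3cb held 4, the most among the 7 members with an entry. Those of Nfatc2 held 3 and 1, of Nfatc3 1 and 0, and of Rcan2 2, 0 and 0. Nfatc1 and Ppp3ca had no entry and were not searched. At least 3 copies on either strand occurred in 9.42% of the 32851 windows of the table, and at least 1 copy in 61.3%, so the letters alone are common. The core of the antioxidant response element bound by Nrf2, TGACNNNGC on either strand, was found in 0 of the 12 windows of the 7 members with an entry, against 12.4% of all windows. Both motifs were searched as letters only. Counts per gene do not tell the Rcan1 starts apart.

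Levels of the genes were compared per length, as TPM from the merged exon length. In βNrf2KO pools Ppp3r1 ranked first (90.5 ± 31.1 TPM, SD, n = 4), ahead of Nfatc2 (45.5 ± 5.27), Ppp3cb (40.3 ± 14.3), Nfatc1 (27.2 ± 4.39), Rcan1 (24.9 ± 1.62), Ppp3ca (22.3 ± 7.46), Nfatc3 (21.0 ± 6.89), Rcan2 (16.9 ± 6.89) and Nfatc4 (4.14 ± 0.826). Control pools gave the same first, second and last gene: Ppp3r1 46.7 ± 38.6, Nfatc2 37.2 ± 10.8 and Nfatc4 4.21 ± 0.923 TPM (SD, n = 3), although Ppp3r1 was above Nfatc2 in only 1 of the 3. Among neighbours in the βNrf2KO order, only Rcan2 and Nfatc4 had ranges that did not overlap, and in the control order only Nfatc2 with Nfatc1 and Nfatc3 with Nfatc4. Nfatc2 was above Nfatc1 in every pool of both groups. The calcineurin-independent relative Nfat5, which answers to osmotic stress, reached 85.9 ± 23.4 TPM in βNrf2KO (SD, n = 4) and 52.7 ± 23.3 TPM in control pools (SD, n = 3). The testis B subunit Ppp3r2 had 3 counts in βNrf2KO pool 2, 1 count in control pool 2 and 0 in the other 5 pools, and was not tested. These TPM values share their denominator with the mitochondrial genes, so groups are compared on the normalized log2 CPM scale instead.

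Shares within a family do not depend on that denominator. Nfatc2 made up 46.8% ± 3.56 of the summed TPM of the 4 calcineurin-controlled NFAT genes in βNrf2KO (SD, n = 4) and 49.0% ± 2.28 in control pools (SD, n = 3). Nfatc3 made up 21.2% ± 4.38 in βNrf2KO and 14.4% ± 6.11 in control pools, and it was lowest in control pools 1 and 2 (11.8% and 10.06%). Among the catalytic subunits Ppp3cb took 54.7% ± 0.81 in βNrf2KO and 48.9% ± 7.25 in control pools, where control pool 2 alone stood low (40.5%). Among the regulators Rcan3, outside the 9 genes, took the largest mean share, 58.4% ± 4.45 in βNrf2KO and 48.7% ± 9.94 in control pools.

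**Figure D1:**
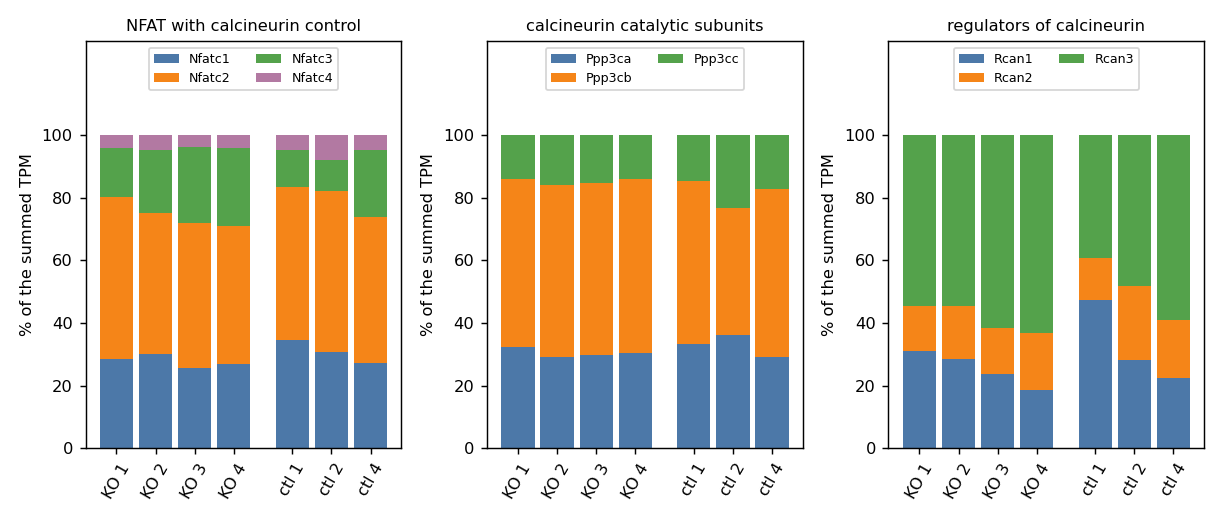
Share of each gene in the summed TPM (%, vertical axis) of 3 gene families, with 1 stacked bar per pool, the 4 βNrf2KO pools (KO) left of the 3 control pools (ctl). Nfatc2, Ppp3cb and Rcan3 had the largest mean share of their family in both groups, while in control pool 1 Rcan1 (47.2%) exceeded Rcan3 (39.1%).

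None of the 9 genes passed the threshold between βNrf2KO and control islets. With p-values from edgeR's quasi-likelihood fit, adjusted by Benjamini-Hochberg over all tested genes, 0 of the 9 were under 0.05, against 0.0% of all tested genes. At unadjusted p under 0.05 there were 3 of the 9 (Nfatc1 and Nfatc4 lower, Ppp3r1 higher), against 8.46% of all tested genes (1683 genes, 3.23% higher and 5.23% lower). The pools of the groups overlapped for every one of the 9, where 7.0% of tested genes did not overlap (3.19% higher and 3.81% lower in βNrf2KO). Of the 9 genes 4 had a log2 fold change above 0 (49.4% of tested genes) and 5 below (50.6%), with a median of -0.17 against -0.01 for all tested genes. With the pool number as a block 14 of all tested genes passed (0.0704%), none of them among the 9. No control pool has number 3, so βNrf2KO pool 3 did not inform the genotype difference in that fit. At unadjusted p under 0.05 the block gave 4 of the 9, Nfatc2 in addition, against 12.1% of tested genes. Within the 3 same-numbered pairs the difference had 1 sign for 7 of the 9, all except Ppp3ca and Rcan1. For Ppp3cb the difference in pair 1 was only 0.004. The share of all tested genes with 1 sign was not computed, so this count is not read as a result about the 9.

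The NFAT genes are the transcription factors of the pathway. Nfatc1 (chromosome 18, 80606205 to 80713071, minus strand, GRCm38) stood at 6.40, 6.39, 6.05 and 6.03 in βNrf2KO pools 1 to 4, against 6.94, 6.98 and 6.17 in control pools 1, 2 and 4 (log2 CPM). Control pools 1 and 2 were above every βNrf2KO pool, and control pool 4 lay among them. The log2 fold change was -0.51 ± 0.21 (SE; edgeR adjusted p = 0.571), or 0.703 times the control level. It was -0.37 without control pool 2 and -0.73 without control pool 4.

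Nfatc2 (chromosome 2, 168476410 to 168601657, minus strand), the NFAT first known from T cells, stood at 7.78, 7.47, 7.40 and 7.25 in βNrf2KO pools 1 to 4, against 7.95, 8.21 and 7.46 in control pools 1, 2 and 4 (log2 CPM). Again control pools 1 and 2 were the highest and control pool 4 was inside the βNrf2KO range. The log2 fold change was -0.42 ± 0.20 (edgeR adjusted p = 0.571). It was -0.24 without control pool 2.

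Nfatc4 (chromosome 14, 55824795 to 55833943, plus strand), which is expressed in muscle, nerve and vessel walls, was the least abundant of the 9 with 111 to 152 counts in βNrf2KO and 159 to 258 counts in control pools. It stood at 2.76, 2.85, 2.41 and 2.49 in βNrf2KO pools 1 to 4, against 3.19, 4.10 and 2.79 in control pools 1, 2 and 4 (log2 CPM). Control pool 2 was far above the rest, and control pool 4 lay just below βNrf2KO pool 2. The log2 fold change was -0.83 ± 0.30, the largest of the 9 in size (edgeR adjusted p = 0.571), and -0.37 without control pool 2.

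Nfatc3 (chromosome 8, 106058840 to 106130537, plus strand) differed in the other direction. It stood at 6.17, 6.46, 6.63 and 6.57 in βNrf2KO pools 1 to 4, against 6.05, 6.01 and 6.49 in control pools 1, 2 and 4 (log2 CPM). Control pools 1 and 2 were lowest, and control pool 4 lay within the βNrf2KO range. The log2 fold change was 0.26 ± 0.18 (edgeR adjusted p = 0.628), with 0.17 without control pool 2 and 0.43 without control pool 4. Its exons share 219 bases with those of Esrp2 on the opposite strand, and the strand setting of the counting is not given in the sources used here.

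**Figure D2:**
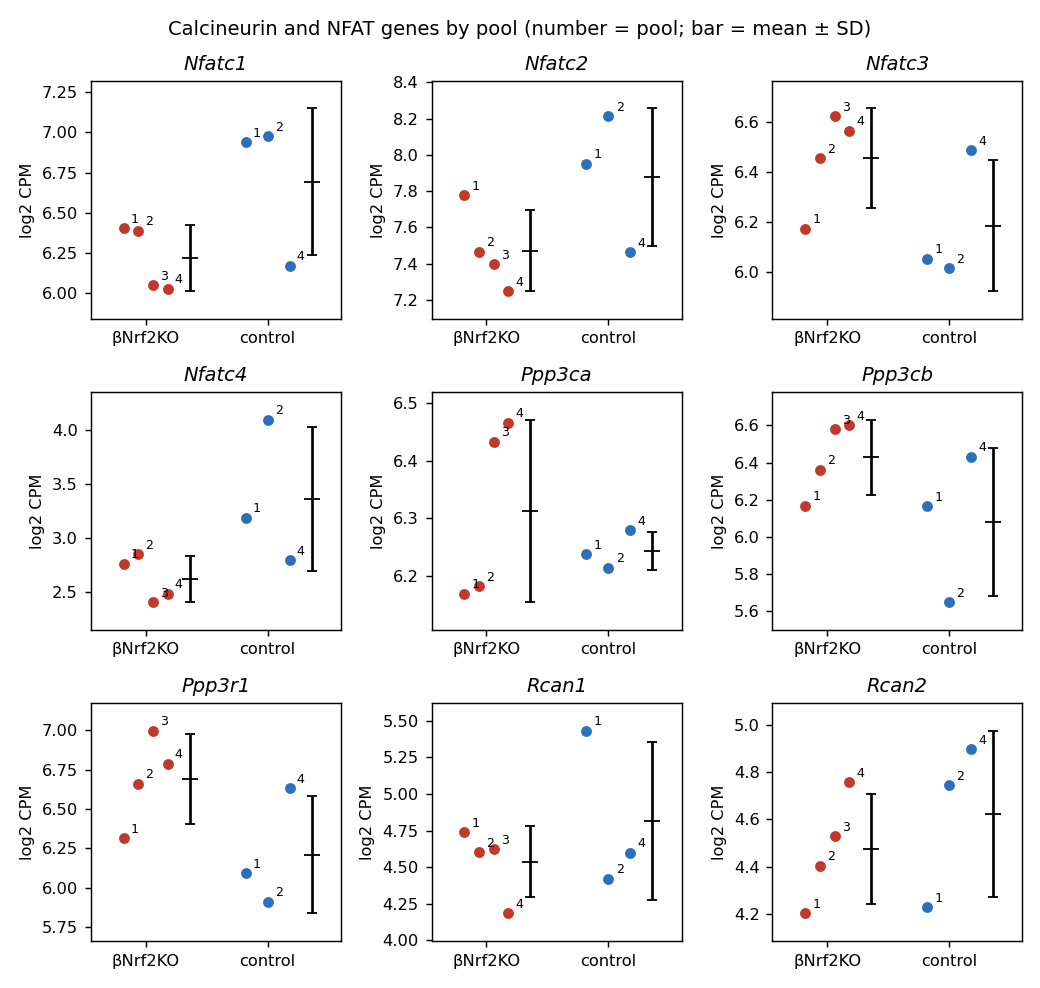
Normalized log2 CPM (vertical axes, scaled per gene) of the 9 genes in the 4 βNrf2KO and 3 control pools, with the pool number beside each point and the mean ± SD at its right. Control pools 1 and 2 lie above all βNrf2KO pools for Nfatc1, Nfatc2 and Nfatc4 and below all of them for Nfatc3, Ppp3cb and Ppp3r1, while control pool 4 lies within the βNrf2KO range for these 6 genes.

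The calcineurin subunits form the phosphatase itself. Ppp3r1 (chromosome 11, 17159263 to 17200375, plus strand), the B subunit, stood at 6.32, 6.66, 7.00 and 6.79 in βNrf2KO pools 1 to 4, against 6.09, 5.91 and 6.63 in control pools 1, 2 and 4 (log2 CPM). Control pools 1 and 2 were below every βNrf2KO pool. The log2 fold change was 0.47 ± 0.21 (edgeR adjusted p = 0.571), or 1.38 times the control level. It was 0.32 without control pool 2 and 0.71 without control pool 4. Its exons share 462 bases with those of Wdr92 on the same strand, a gene with 20 to 71 counts per pool.

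Ppp3cb (chromosome 14, 20499364 to 20546573, minus strand), a catalytic subunit, stood at 6.17, 6.36, 6.58 and 6.60 in βNrf2KO pools 1 to 4, against 6.16, 5.65 and 6.43 in control pools 1, 2 and 4 (log2 CPM). Its log2 fold change was 0.32 ± 0.20 (edgeR adjusted p = 0.611), with 0.13 without control pool 2, the lowest of the 7 pools, and 0.51 without control pool 4. Ppp3ca (chromosome 3, 136670124 to 136937727, plus strand), the catalytic subunit most abundant in brain, was the steadiest of the 9. Its log2 CPM spanned 6.17 to 6.47 in βNrf2KO and 6.22 to 6.28 in control pools, with a log2 fold change of 0.07 ± 0.15 (edgeR adjusted p = 0.868). The third catalytic gene, Ppp3cc, had 114 to 216 counts in βNrf2KO and 113 to 266 in control pools and differed by -0.10 ± 0.23 (adjusted p = 0.881).

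The regulators of calcineurin form the feedback arm. Rcan1 (chromosome 16, 92391953 to 92466146, minus strand) stood at 4.74, 4.60, 4.62 and 4.18 in βNrf2KO pools 1 to 4, against 5.43, 4.42 and 4.60 in control pools 1, 2 and 4 (log2 CPM). Control pool 1 alone was high, and the other 6 pools lay together. The log2 fold change was -0.34 ± 0.25 (edgeR adjusted p = 0.644), and it was 0.04 without control pool 1, so 1 pool set its direction.

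Rcan2 (chromosome 17, 43801851 to 44039516, plus strand), a relative abundant in brain and muscle, stood at 4.20, 4.40, 4.53 and 4.76 in βNrf2KO pools 1 to 4, against 4.23, 4.75 and 4.90 in control pools 1, 2 and 4 (log2 CPM). The groups overlapped, with a log2 fold change of -0.17 ± 0.21 (edgeR adjusted p = 0.787), -0.02 without control pool 4 and -0.34 without control pool 1. Rcan3, the remaining family gene, differed by 0.27 ± 0.23 (adjusted p = 0.678), with 0.13 without control pool 1 and 0.60 without control pool 4. Nfat5 differed by 0.04 ± 0.16 (adjusted p = 0.945), and by -0.07 without control pool 4.

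**Figure D3:**
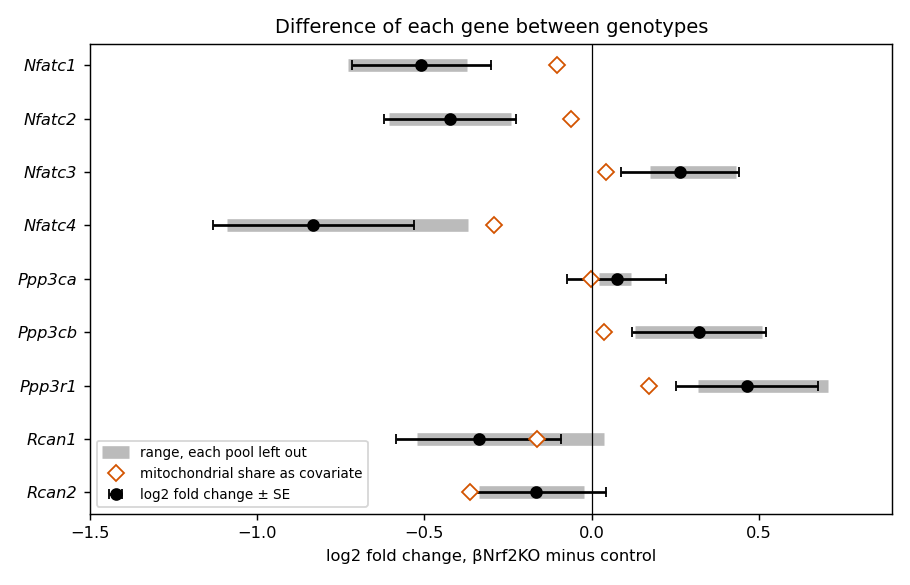
Log2 fold change of each gene, βNrf2KO minus control (horizontal axis), with SE over 4 and 3 pools, the range when each pool was left out (grey) and the value with the mitochondrial share of counts as a covariate (open diamonds). The subunit genes lie above 0 and the NFAT genes other than Nfatc3 below, and the diamonds lie closer to 0 than the black points for all genes except Rcan2.

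Count ratios of 2 genes within a pool do not depend on library scaling, and 5 such ratios were tested. An exact permutation test (two-sided) of 4 against 3 pools cannot go below 0.0571. The ratio of Nfatc1 to Nfatc3 counts was 1.17, 0.955, 0.672 and 0.689 in βNrf2KO pools 1 to 4, against 1.85, 1.95 and 0.802 in control pools 1, 2 and 4. The difference in mean log2 ratio was -0.75 (exact p = 0.171, 0.286 after adjustment over the 5 ratios). Nfatc2 over Nfatc3 and Nfatc4 over Nfatc3 differed by -0.68 and -1.01 in log2 ratio with the same exact p. The ratios over Nfatc3 share that gene, which differed in the other direction from the genes above it, so they are not separate results. Ppp3ca over Ppp3cb differed by -0.28 (exact p = 0.229). Without control pool 2 these were -0.42 for Nfatc2 over Nfatc3, -0.56 for Nfatc4 over Nfatc3 and -0.08 for Ppp3ca over Ppp3cb, and without control pool 4 they were -1.03, -1.45 and -0.44 for the same ratios. Nfatc1 over Nfatc3 was -0.52 without control pool 2 and -1.16 without control pool 4. Rcan1 over Rcan2 differed by -0.13 (exact p = 0.800), and by 0.38 without control pool 1. The pools of the groups overlapped for all 5 ratios.

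The levels of the 9 genes were next set against the mitochondrial share of each pool, a relation noticed in these data. Each genotype has too few pools for a correlation of its own, so the order is given. Among the 4 βNrf2KO pools, Nfatc1 and Nfatc2 were ranked as the share was, and Ppp3ca, Ppp3cb and Rcan2 in reverse. Among the 3 control pools Nfatc1, Nfatc2 and Nfatc4 were highest, and Nfatc3, Ppp3ca, Ppp3cb, Ppp3r1 and Rcan1 lowest, in the pool with the largest share. How many of all tested genes had such orders was not counted, so the orders are not read as a trait of these genes. Over the 7 pools Nfatc2 had a Pearson r of 0.970 (exact permutation p = 0.000595) and a Spearman rho of 0.964 (exact permutation p = 0.00278). Adjusted over all tested genes these were 0.0489 and 0.0951. The permutations moved pools freely across genotypes, and control pools 1 and 2 had the largest shares. These p-values, and those of the other members below, therefore cannot tell share from genotype. By Pearson's r 1.22% of tested genes passed 0.05 after adjustment, and by Spearman's rho 0.0%. Without the 2 pools farthest from the median share (control pools 1 and 2), r for Nfatc2 was 0.859.

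Nfatc1 had r = 0.959 and rho = 0.964 (exact permutation p = 0.00278 for each, adjusted p = 0.0686 and 0.0951), and r was 0.773 without the same 2 pools. An r as far from 0 was found in 0.543% of tested genes for Nfatc2, 1.09% for Nfatc1, 4.96% for Ppp3cb, 5.53% for Nfatc3, 7.27% for Ppp3r1, 7.81% for Nfatc4, 44.6% for Ppp3ca, 56.0% for Rcan1 and 71.0% for Rcan2. Ppp3cb had r = -0.912 (exact permutation p = 0.00179, adjusted p = 0.0603) and rho = -0.964 (p = 0.00278, adjusted 0.0951, by exact permutation), with r = -0.784 without those pools. Nfatc3 had r = -0.906 and rho = -0.893 (exact permutation p = 0.00317 and 0.0123, adjusted p = 0.0714 and 0.149), with r = -0.691 without those pools. Nfatc4 had r = 0.885 and rho = 0.750 (exact permutation p = 0.00556 and 0.0663, adjusted p = 0.0836 and 0.274). Its r was 0.377 without control pools 1 and 2, so that relation rests on them. Ppp3r1 had r = -0.891 and rho = -0.821 (exact permutation p = 0.00714 and 0.0341, adjusted p = 0.0909 and 0.204), with r = -0.505 without those pools. For Ppp3ca, Rcan1 and Rcan2 r was -0.558, 0.451 and -0.305, with rho of -0.679, 0.429 and -0.571 (exact permutation p between 0.110 and 0.488, adjusted p of 0.356 or more). Without control pools 1 and 2, r was -0.715 for Ppp3ca, 0.858 for Rcan1 and -0.911 for Rcan2 over the other 5 pools.

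With the mitochondrial share as a covariate, an alternative chosen after the data were seen, the log2 fold change was -0.10 ± 0.15 for Nfatc1, -0.06 ± 0.14 for Nfatc2, -0.29 ± 0.27 for Nfatc4, 0.04 ± 0.16 for Nfatc3, 0.04 ± 0.17 for Ppp3cb and 0.17 ± 0.18 for Ppp3r1 (edgeR, smallest adjusted p = 0.981). It was -0.16 ± 0.28 for Rcan1 and near 0 for Ppp3ca, while Rcan2 moved away from 0 to -0.36 ± 0.22. Leaving the mitochondrial genes out of the libraries kept Nfatc1 at -0.51 and Ppp3r1 at 0.47. TMM scaling was used with and without these genes, so that fit does not adjust for the share. Over all tested genes, those at unadjusted edgeR p under 0.05 went from 1683 to 572 with the covariate. The share was largest in control pools 1 and 2, so the fit with the covariate cannot fully tell share from genotype. The part of the share in the differences was not tested.

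**Figure D4:**
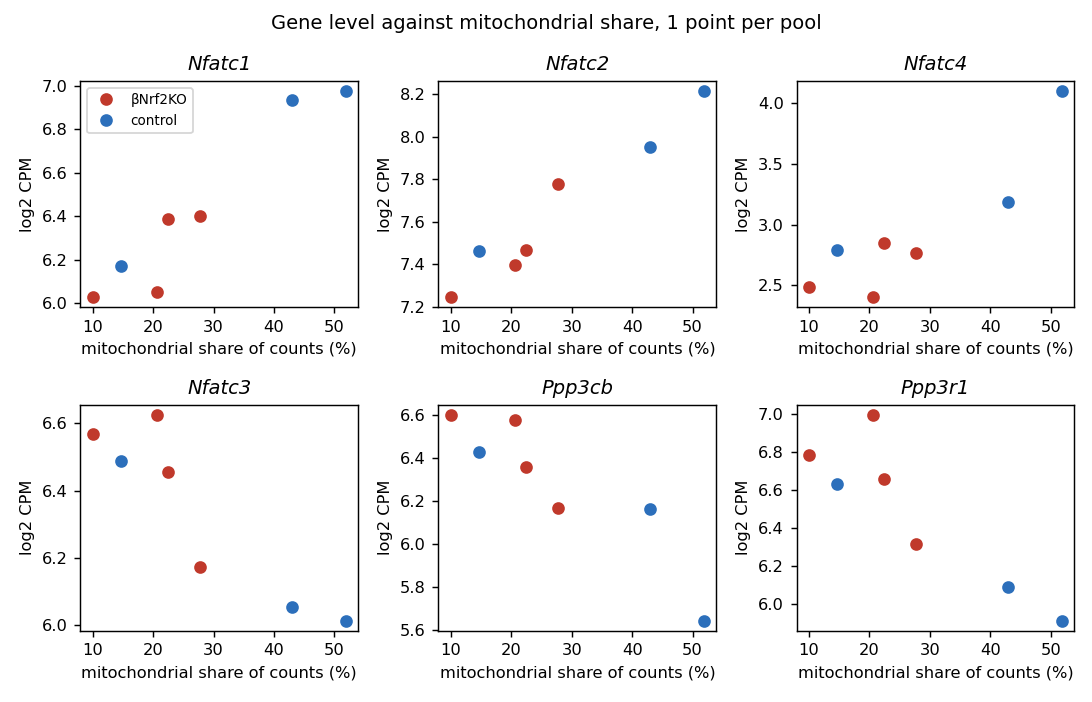
Normalized log2 CPM of 6 genes (vertical axes) against the share of counts from the mitochondrial genome (%, horizontal axes), with 1 point per pool, βNrf2KO in red and control in blue. Nfatc1, Nfatc2 and Nfatc4 are highest and Nfatc3, Ppp3cb and Ppp3r1 lowest at the largest share (51.8%), with control pool 4 (14.6%) among the βNrf2KO pools.

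Whole islets hold other cells that express NFAT genes, and in bulk RNA fewer cells of a type and less RNA per cell cannot be told apart. All 9 genes of pericytes and smooth muscle had a log2 fold change below 0 (median -0.80, 0 past the threshold), and their summed CPM ran from 724.7 to 1088.7 in βNrf2KO and from 838.0 to 2289.3 in control pools. The 8 fibroblast genes were likewise all below 0 (median -0.83), with sums of 403.6 to 849.2 in βNrf2KO and 452.0 to 1369.6 in control pools. Of 9 endothelial genes, a cell type in which Nfatc1 is used, 6 were above 0 (median 0.15), with sums of 1216.5 to 1533.6 in βNrf2KO and 1109.2 to 1322.3 in control pools. Macrophage genes were lower for 7 of 8 (sums 41.0 to 54.7 in βNrf2KO, 41.8 to 83.3 in control pools). Of 6 tested lymphocyte genes, from cells rich in Nfatc1 and Nfatc2, 4 were below 0. All 8 listed lymphocyte genes together were scarce, with sums of 5.3 to 14.3 in βNrf2KO and 10.9 to 11.5 in control pools. Cd3d was at 0 in at least 1 pool. Of 8 genes of neurons and Schwann cells 7 were below 0, with sums of 78.2 to 115.9 in βNrf2KO and 95.0 to 152.6 in control pools. Their sum and that of pericytes and smooth muscle were highest in control pool 2, where Nfatc4, Nfatc1 and Nfatc2 were also highest. These NFAT genes were higher in control pool 1 than in control pool 4. The neuron and Schwann cell sums were 95.0 and 138.8 in those pools, the reverse order. Those of pericytes and smooth muscle were 1318.6 and 838.0. All 7 tested acinar genes were below 0. The sums over all 9 listed acinar genes were 46.3 to 210.0 in βNrf2KO and 51.8 to 376.7 in control pools. Pnlip and Amy2b were at 0 in a pool. Acinar, fibroblast and macrophage sums were all highest in control pool 1, where Rcan1 was also highest. The next highest fibroblast sum was in control pool 2 (1116.9), where Rcan1 (4.42 log2 CPM) was below every pool except βNrf2KO pool 4. The next highest acinar and macrophage sums were in βNrf2KO pool 2 (210.0 and 54.7), where Rcan1 stood at 4.60. Of 7 ductal genes 4 were above 0, and their sums were 170.3 to 227.1 in βNrf2KO and 138.0 to 184.7 in control pools. Of 10 β-cell genes 8 were above 0, with sums of 33761 to 46181 in βNrf2KO and 16928 to 47861 in control pools. Of 8 genes of α- and δ-cells 6 were above 0, with sums of 5601 to 19465 in βNrf2KO and 4559 to 14957 in control pools. The part of these cell types in the NFAT and Rcan1 values was not tested.

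The genes around calcineurin and NFAT were read from 4 further lists, and 0 members of any list passed over all tested genes. Of 9 inhibitors, scaffolds and drug-binding partners 4 were above and 5 below 0 (median -0.05). Homer3, a scaffold that competes with calcineurin for NFAT, stood at 3.04, 3.10, 2.99 and 2.80 in βNrf2KO pools 1 to 4, against 3.52, 4.02 and 3.24 in control pools 1, 2 and 4 (log2 CPM), with no overlap (log2 fold change -0.65 ± 0.23, edgeR adjusted p = 0.571; -0.41 without control pool 2). The pools also did not overlap for Ppia (-0.34 ± 0.17) and Fkbp1a (0.31 ± 0.16), whose proteins carry the calcineurin inhibitors ciclosporin and tacrolimus (edgeR adjusted p = 0.571 and 0.573). Of all tested genes 7.0% had no overlap, and in each list overlap was read only for the 3 genes with the smallest p.

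Of 10 NFAT kinases and nuclear transport genes 6 were above and 4 below 0 (median 0.09). The NFAT export kinases Gsk3b and Gsk3a differed by 0.32 ± 0.21 and 0.20 ± 0.15, and the import receptor Kpnb1 by 0.23 ± 0.16 (edgeR, smallest adjusted p = 0.621). Dyrk1a, the kinase that primes NFAT for export, differed by -0.13 ± 0.15.

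Of 16 genes of calmodulin and of calcium entry or release 7 were above and 9 below 0 (median -0.18). Atp2a2, the pump that refills the endoplasmic reticulum with calcium, stood at 10.25, 10.26, 10.47 and 10.36 in βNrf2KO pools 1 to 4, against 9.70, 9.64 and 10.20 in control pools 1, 2 and 4 (log2 CPM). These did not overlap (log2 fold change 0.47 ± 0.18, edgeR adjusted p = 0.571). Cacna1d, a voltage-gated calcium channel of β-cells, and Itpr1, a calcium release channel, differed by -0.40 ± 0.19 and -0.42 ± 0.20 (adjusted p = 0.571 each), but by -0.16 and -0.13 without control pool 2.

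Of 18 genes reported downstream of calcineurin or NFAT in mouse β-cells 9 were above and 9 below 0, with a median of 0.01 against -0.01 for all tested genes. Mafa, an activator of insulin transcription in mature β-cells, stood at 2.88, 3.43, 3.08 and 2.85 in βNrf2KO pools 1 to 4, against 3.62, 3.82 and 4.09 in control pools 1, 2 and 4 (log2 CPM). Every control pool was above every βNrf2KO pool (log2 fold change -0.79 ± 0.22, edgeR adjusted p = 0.571), with values from -0.92 to -0.65 as single pools were left out. With the mitochondrial share as a covariate Mafa differed by -0.88. The mitotic factor Foxm1 differed by -0.47 ± 0.19 and the β-cell factor Neurod1 by 0.53 ± 0.22 (adjusted p = 0.571 each). Without control pool 2 they differed by -0.29 and 0.34, and with the covariate by -0.39 and 0.20. The cyclins Ccnd1 and Ccnd2, which carry β-cells into division, differed by -0.26 ± 0.21 and 0.34 ± 0.20, and the kinase they bind, Cdk4, by 0.04 ± 0.15. The granule genes Chga, Chgb, Ptprn and Ptprn2 differed by -0.23 ± 0.16, -0.04 ± 0.20, -0.02 ± 0.19 and -0.12 ± 0.18, and Scg2 by 0.43 ± 0.29. The insulin genes Ins2 and Ins1 differed in opposite directions, by 0.75 ± 0.36 and -0.66 ± 0.31.

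**Figure D5:**
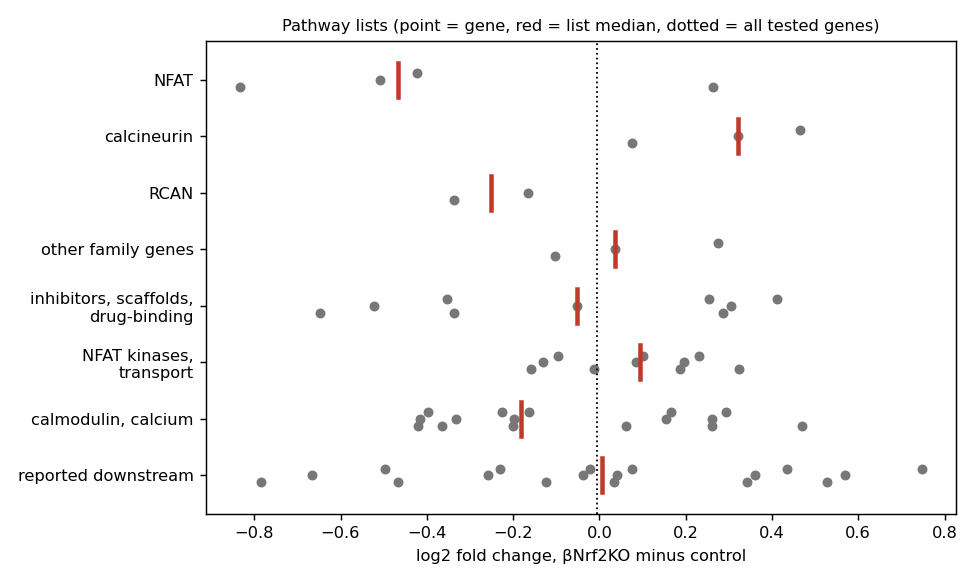
Log2 fold change, βNrf2KO minus control (horizontal axis), of each tested gene in 8 lists (1 point per gene), with the list median in red and the median of all tested genes dotted. No point passed the threshold, and the genes reported downstream spread from -0.79 (Mafa) to 0.75 (Ins2) around a median of 0.01.

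The genes whose pattern over the 7 pools lay closest to a member were ranked by the root mean square (RMS) difference of log2 CPM, each gene centred on its own mean. For Nfatc1, whose own RMS about its mean was 0.364, the nearest were Sema4a (0.055), Zswim6 (0.070), Fam227a (0.079) and Rftn1 (0.082). For Nfatc4, with an own RMS of 0.529, they were Lrrc71 (0.060), Spsb3 (0.061), Kcnn2 (0.063) and Dysf (0.067). For Rcan1, with an own RMS of 0.357, they were Ubtd1 (0.068), Ngdn (0.10), Ldhd (0.126) and Trit1 (0.130). For Ppp3ca, with an own RMS of only 0.110, they were Gid4 (0.045), Tor2a (0.047), Polh (0.049) and Mia2 (0.049).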

How the data were processed

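Pancreatic islet RNA, depleted of ribosomal RNA, was sequenced in 7 pools. The submitters' processing notes list bcl2fastq 2.20, Trimmomatic 0.36, featureCounts, Subread 1.5.2 and the aligner STAR 2.5.2b. The authors deposited raw counts for each gene, with the merged exon length from which TPM was computed here. No source used here gives the strand setting. The notes name a newer build, but 91.4% of 49056 shared gene IDs had the start and end of GENCODE M21, so coordinates are GRCm38. Symbols matched 48970 IDs. Library sizes and tests excluded the Cre entry, and a combined table with the same columns was not used.

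The gene test was that of edgeR 4.0.16 under R 4.3.3: TMM, filterByExpr, robust quasi-likelihood fit, two-sided test, Benjamini-Hochberg adjustment over 19893 genes, threshold 0.05. The procedure was tested on simulated data with the same dispersion for every gene and no difference in mitochondrial share between pools. That setting is simpler than these data. Log2 CPM used a prior count of 2. Single ratios were compared with exact permutation tests (scipy 1.17.1). Alternatives were other normalizations and filters, DESeq2 1.42.0, limma-voom (limma 3.58.1), the pool number as a block, each pool left out and a threshold of 0.1. The mitochondrial share as a covariate was added after the data were seen. Same-numbered pools deviated together from their group means (r = 0.376, 0.229 and 0.323 for numbers 1, 2 and 4; -0.353 to 0.241 for other pairs). The labels do not say what the numbers mean, and by the data they were treated as pairs in the block fit.

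Total counts of 18187382 to 25373105 per pool put 3 counts, the limit for a gene at 0, at 0.118 to 0.165 CPM (counting error only). The members and lists were chosen with earlier results of these data known. Named genes were the members, their family genes, the 3 with the smallest p per pathway list and, for likeness, the 4 nearest to each of 4 members. Other genes of the lists (Dyrk1a, the cyclins, Cdk4, the granule genes and the insulin genes) were named after their values were seen.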

Additional observations from a re-analysis of the deposited data

How the results depend on the processing

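No member passed an adjusted p of 0.05 under any alternative run, and the smallest was 0.160, without control pool 4. Of the members' log2 fold changes 142 alternative values kept their sign and 2 turned, Rcan1 without control pool 1 (0.036; -0.521 to 0.036 as single pools were left out) and Ppp3ca with the mitochondrial share as a covariate (-0.0004344). Outside the members the sign turned for Nfat5 (-0.065 to 0.166 as single pools were left out), for Rcan3 with that covariate (-0.061) and for Nfe2l2 (-0.10 to 0.45 as single pools were left out, -0.047 without control pool 4). The log2 ratio of Rcan1 to Rcan2 ran from -0.39 to 0.378, turning without control pool 1 or βNrf2KO pool 4 (0.083). The number of genes past the threshold was 2 by DESeq2, 14 with the pool number as a replicate block, and 1 without control pool 4 (0 to 1 over all pools left out). The block changed no other call. At unadjusted p under 0.05 there were 2620 genes with no filter, 572 with the covariate, 475 without control pool 2 and 3446 without control pool 4, the extremes as single pools were left out. By CPM, which is not per length, the βNrf2KO ranks were Nfatc2 1, Ppp3r1 2, Nfatc3 3, Ppp3cb 4, Ppp3ca 5, Nfatc1 6 and Rcan1 7. The causes were not tested. Depth limits Nfatc4 and Ppp3cc, at 111 to 266 counts per pool, and left Ppp3r2, at 0 to 3 counts, untested. Counts were likewise low for Homer3 (152 to 281 per pool) and for Mafa (136 to 228 in βNrf2KO and 212 to 509 in control pools).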
